A study of Homo sapiens with 4 samples.

Results

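The BCL2 family genes described here are BCL2, BCL2L1, MCL1, BAX, BAK1, BCL2L11, BBC3, PMAIP1, BID and BAD, the 10 rows with these names among the 60606 rows of the count table. All 10 genes passed the expression filter of edgeR, as did 19349 genes in all. RNA was sequenced from DaroR cells, a darolutamide-resistant line derived from LNCaP prostate cancer cells, which were kept in medium with this antiandrogen. In the siControl group, 2 libraries came from DaroR cells transfected with control siRNA, and in the siLOC730101 group, 2 libraries came from DaroR cells transfected with a pool of siRNAs against the lncRNA LOC730101. All 4 libraries are of the same resistant line, and parental cells were not analysed here. Because 1 siRNA pool was used, loss of LOC730101 and other effects of the pool cannot be told apart. The labels do not state whether the replicates were separate cultures, so that p-values measure only the spread between these libraries.

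The BCL2 family controls whether the outer membrane of mitochondria is breached during apoptosis. BCL2, BCL-XL (the main product of BCL2L1) and MCL1 hold the membrane intact by binding pro-apoptotic relatives, while BAX and BAK1 form the pores through which cytochrome c leaves. The BH3-only proteins BIM (BCL2L11), PUMA (BBC3), NOXA (PMAIP1), BID and BAD sense stress and act on the other members. In prostate cancer cells, BCL-XL and MCL1 are known as survival factors and as drug targets. Much of the control of this family lies in splicing, protein turnover, phosphorylation and cleavage, which counts per gene do not record.

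The libraries held 39213498 to 53368158 counts, with the siLOC730101 libraries below the siControl libraries. LOC730101, listed as ENSG00000216775, was lower by 66.0% after siLOC730101, with a log2 fold change of -1.56 (edgeR, adjusted p = 4.34e-06). Across the table, 0.284% of genes tested were called, that is passed an adjusted p of 0.05 in the quasi-likelihood test of edgeR, 41 higher and 14 lower after siLOC730101. The 8 luminal prostate markers examined, KLK3, HOXB13 and FOLH1 among them, were all measured. They summed to 5450 to 6054 CPM in siControl and 5813 to 6146 CPM in siLOC730101. Of the markers of other cell types, 2 of 6 for leukocytes (PTPRC and CD3E), 2 of 6 for fibroblasts (COL1A2 and LUM), 1 of 4 for endothelium (CDH5) and 3 of 4 for neuroendocrine cells (CHGA, CHGB and INSM1) were at 0 counts in every library. The leukocyte list summed to 0.148 to 0.278 CPM in siControl and 0.0243 to 0.211 CPM in siLOC730101, and the fibroblast list to 16.0 to 20.5 and 16.5 to 17.3 CPM. The endothelial list summed to 6.79 to 9.44 and 5.84 to 7.01 CPM, and the neuroendocrine list to 2.24 to 2.37 and 2.09 to 2.95 CPM. The markers that passed the expression filter were 3 of 6 for fibroblasts and 1 of 4 for endothelium. For neuroendocrine cells 1 of 4 passed it, and for leukocytes 0 of 6. In bulk RNA, a lower value in all cells and the loss of cells that express a gene cannot be told apart.

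The study asks whether LOC730101 acts through miR-1-3p, so the 3′ UTRs of the family were searched for its seed match. The seed of the mature miRNA, bases 2 to 8, is in capitals in the first sequence, and the 6-base match CATTCC is in capitals in the sites, which are read from the reference transcripts in the 5′ to 3′ direction of each gene.

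hsa-miR-1-3p: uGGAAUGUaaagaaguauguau

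BCL2, 7mer-m8: tttttaaatgtaaaaCATTCCc

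BCL2L11, 7mer-A1: tttggtgttggttttCATTCCa

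BAK1, 6mer: acccttgtgagagccCATTCCc

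BAK1, 6mer: ctctacccctgctccCATTCCt

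BCL2 holds the single 7mer-m8 match (ACATTCC) of the family, at position 4049 of a 3′ UTR of 5279 bases, with the 6-base match on chromosome 18 from 60791804 to 60791809 of GRCh37, minus strand. BCL2L11 holds a single 7mer-A1 match (CATTCCA), at position 897 of 4213 bases, on chromosome 2 from 111922705 to 111922710, plus strand. BAK1 holds a pair of 6-base matches, at positions 379 and 591 of 1251 bases, on chromosome 6 from 33541196 to 33541201 and from 33540984 to 33540989, minus strand. The 3′ UTRs of BCL2L1, MCL1, BAX, BBC3, PMAIP1, BID and BAD hold no CATTCC. Over 18716 protein-coding genes searched in the same way on the transcript strand, 12.0% held ACATTCC and 33.6% held CATTCC. A match is a description of letters and not evidence of binding. Of the 3 genes with a match, BCL2 had a log2 fold change of -0.43, BCL2L11 of 0.010 and BAK1 of 0.060, with the values and errors given below by gene.

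Levels of the family were compared as CPM per kilobase, that is counts per 1000000 of the TMM-scaled library (CPM) divided by the exon length of the gene. This length joins all annotated exons of a gene and can exceed that of a transcript. The canonical transcript has 795 bases for BAX, against an exon length of 2587, and 2170 for BAK1, against 2212. The order of genes depends on this choice of length, and levels per transcript length were not computed. MCL1 had the highest mean level over the 4 libraries, 31.4 CPM per kilobase, above 92.9% of all genes tested. BCL2L1 followed with 13.7, BAD with 11.6, PMAIP1 with 9.58 and BAX with 8.23 CPM per kilobase. The ranges of neighbouring genes in this stretch, from BCL2L1 to BAX, overlap. BCL2L11 with 5.99 and BAK1 with 5.33 CPM per kilobase also overlap each other and lie below BAX. BBC3 with 2.69, BID with 1.79 and BCL2 with 0.925 CPM per kilobase are separate from their neighbours in the order. BCL2, after which the family is named, was thus the lowest of these 10 genes in DaroR cells by this measure, above 34.6% of genes tested.

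**Figure D1:**
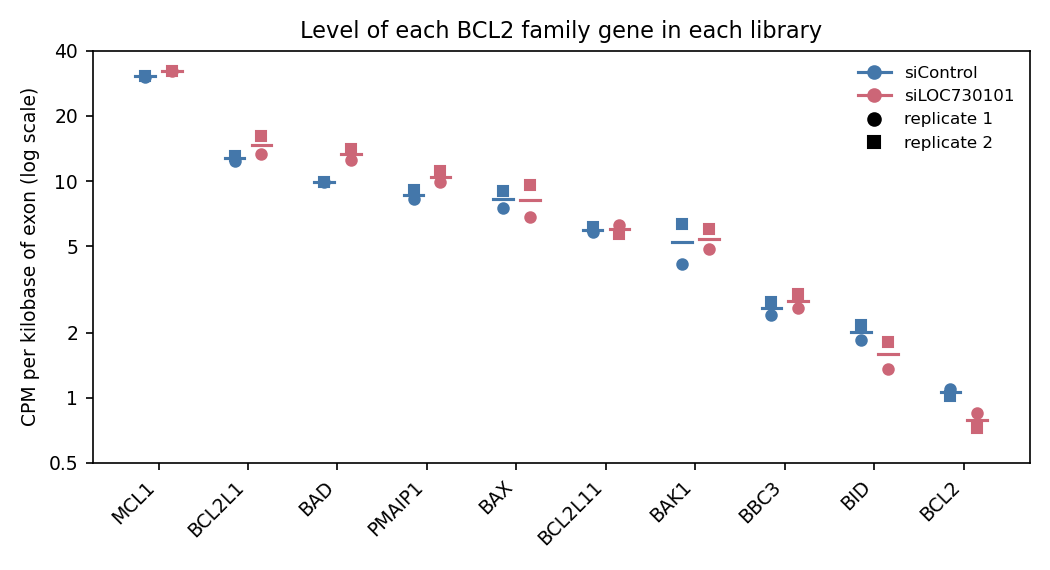
Level of each of the 10 genes in each library, in CPM per kilobase of exon on a log scale; circles and squares are replicates 1 and 2, and bars are the mean of the 2 libraries of a group. MCL1 lies at 30.3 to 32.3 in all libraries and BCL2 at 0.725 to 1.10, and the siLOC730101 points of BAD lie above both siControl points.

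The anti-apoptotic genes did not differ between siLOC730101 and siControl with an adjusted p under 0.05. MCL1, a short-lived survival protein, lies on chromosome 1 of GRCh38 from 150560895 to 150579738, minus strand. It had 10200 and 8948 siControl counts against 8268 and 7585 siLOC730101 counts, or 30.5 ± 0.282 and 32.2 ± 0.165 CPM per kilobase (SD, n = 2). Both siLOC730101 libraries lay above both siControl libraries once scaled, by a small step. The log2 fold change of MCL1 was 0.078 (standard error 0.073, edgeR adjusted p = 0.776), with a 95% interval from -0.077 to 0.23.

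BCL2L1 lies on chromosome 20 from 31664452 to 31723989, minus strand, and its counts do not separate the long anti-apoptotic from the short pro-apoptotic splice form. It had 2823 and 2572 siControl counts against 2291 and 2569 siLOC730101 counts, or 12.4 and 13.1 against 13.3 and 16.1 CPM per kilobase. The groups did not overlap, but siLOC730101 replicate 1 was close to the siControl libraries and replicate 2 was well above them. This is a log2 fold change of 0.20 (standard error 0.10, edgeR adjusted p = 0.509), with a 95% interval from -0.016 to 0.42. Without siLOC730101 replicate 1 the log2 fold change was 0.35, with an edgeR adjusted p of 0.0266, in a fit where 5.56% of all genes tested were called. Without siLOC730101 replicate 2 it was 0.055, with an edgeR adjusted p of 0.987.

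BCL2 lies on chromosome 18 from 63123346 to 63320128, minus strand, and spans the longest exons of the family, 12612 bases in all. It had 749 and 604 siControl counts against 442 and 347 siLOC730101 counts. Scaled, these were 1.10 and 1.02 against 0.853 and 0.725 CPM per kilobase, so that both siLOC730101 libraries were below both siControl libraries. The log2 fold change of BCL2 was -0.43 (standard error 0.16, 95% interval from -0.78 to -0.078). Its unadjusted p was 0.0197 and its adjusted p was 0.323 in edgeR, which is over the threshold.

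The pore-forming effectors BAX and BAK1 were not called, and their libraries spread widely within both groups. BAX, on chromosome 19 from 48954815 to 48961798, plus strand, had 1051 and 1091 siControl counts against 728 and 938 siLOC730101 counts. This corresponds to 7.52 and 9.01 against 6.85 and 9.55 CPM per kilobase, with the lowest and the highest library both in siLOC730101. The log2 fold change of BAX was -0.011 (standard error 0.16, edgeR adjusted p = 0.993), and its 95% interval from -0.34 to 0.32 leaves room for a fold between 0.788 and 1.25. It changed sign when a library was left out, between -0.27 and 0.22.

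BAK1, on chromosome 6 from 33572547 to 33580293, minus strand, had 494 and 653 siControl counts against 440 and 506 siLOC730101 counts. The levels were 4.13 and 6.31 against 4.84 and 6.03 CPM per kilobase, with both siLOC730101 libraries between the siControl libraries. BAK1 had a log2 fold change of 0.060 (standard error 0.20, edgeR adjusted p = 0.956), which ranged from -0.21 to 0.40 when each library was left out. Its 95% interval, from -0.37 to 0.49, is the widest of the family after that of BID. BAK1P1 and BAK1P2, which resemble BAK1, had at most 2 counts in any library.

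Among the BH3-only genes, no gene passed the threshold, and BAD had the difference farthest from 0, close in size to that of BCL2. BAD, whose product binds BCL-XL and BCL2 unless survival kinases phosphorylate it, lies on chromosome 11 from 64269830 to 64284704, minus strand. It had 914 and 789 siControl counts against 879 and 915 siLOC730101 counts, or 9.90 and 9.87 against 12.5 and 14.1 CPM per kilobase. The siControl libraries were nearly equal, and both siLOC730101 libraries lay above them. The log2 fold change of BAD was 0.43 (standard error 0.13, 95% interval from 0.16 to 0.70, a fold of 1.35). Its unadjusted p was 0.0045 and its adjusted p was 0.179 in edgeR. With the replicate number as a block the adjusted p of BAD was 0.0496 in edgeR, in a fit that called 3.37% of all genes, and without siLOC730101 replicate 1 it was 0.0344. Without siLOC730101 replicate 2 the log2 fold change of BAD was 0.34 with an edgeR adjusted p of 0.653, and without a siControl library the edgeR adjusted p was 0.293 or 0.403.

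PMAIP1, whose product NOXA binds MCL1, lies on chromosome 18 from 59899996 to 59904305, plus strand. It had 975 and 929 siControl counts against 890 and 920 siLOC730101 counts, or 8.25 and 9.08 against 9.91 and 11.1 CPM per kilobase. The groups did not overlap, and the log2 fold change was 0.28 (standard error 0.13, 95% interval from 0.0046 to 0.55). In edgeR the unadjusted p was 0.0467 and the adjusted p 0.455.

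BCL2L11, whose product BIM can bind all anti-apoptotic relatives, lies on chromosome 2 from 111119378 to 111168445, plus strand. It had 2090 and 1910 siControl counts against 1721 and 1447 siLOC730101 counts, or 5.97 ± 0.228 and 6.01 ± 0.401 CPM per kilobase (SD, n = 2). Its log2 fold change was 0.010 (standard error 0.10, edgeR adjusted p = 0.989), with a 95% interval from -0.21 to 0.23. This interval and that of MCL1 were the narrowest of the family.

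BBC3, on chromosome 19 from 47220822 to 47232766, minus strand, encodes PUMA. It had 416 and 414 siControl counts against 338 and 363 siLOC730101 counts, or 2.42 and 2.78 against 2.58 and 3.00 CPM per kilobase, so that the groups overlapped. For BBC3 this is a log2 fold change of 0.11 (standard error 0.19, edgeR adjusted p = 0.907), with a 95% interval from -0.29 to 0.50. BID, the relative that caspase 8 cleaves to link death receptors to mitochondria, lies on chromosome 22 from 17734138 to 17774770, minus strand. It had 442 and 446 siControl counts against 247 and 304 siLOC730101 counts, or 1.85 and 2.16 against 1.36 and 1.81 CPM per kilobase. Both siLOC730101 libraries lay below both siControl libraries, siLOC730101 replicate 2 by little. For BID the log2 fold change was -0.34 (standard error 0.20, edgeR adjusted p = 0.597), with a 95% interval from -0.77 to 0.098. Leaving out siLOC730101 replicate 1 gave -0.13, siControl replicate 2 gave -0.22 and siLOC730101 replicate 2 gave -0.56.

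**Figure D2:**
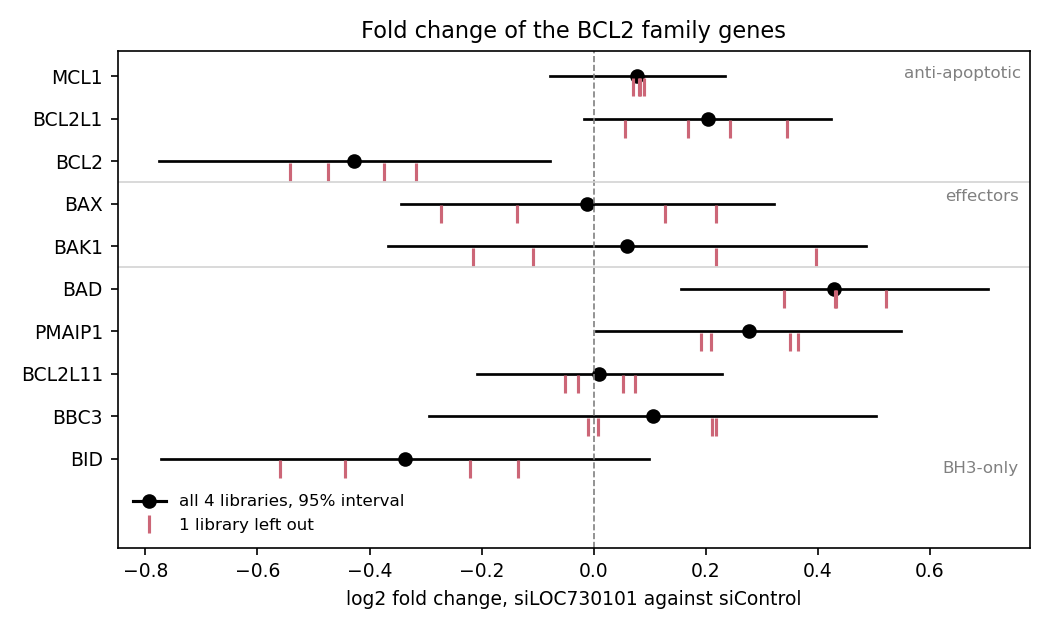
Log2 fold change of each gene, siLOC730101 against siControl, with its 95% interval from edgeR as a black point and line, and the values with 1 library left out as red ticks. The intervals of BAD, PMAIP1 and BCL2 do not reach 0, while none of the 10 genes passed an adjusted p of 0.05, and the red ticks of BAX, BAK1, BCL2L11 and BBC3 lie on both sides of 0.

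In all, edgeR's quasi-likelihood test called 0 of the 10 genes, against 0.284% of all genes tested. At an unadjusted p under 0.05 in edgeR there were 3 of the 10, BAD and PMAIP1 higher and BCL2 lower, beside 10.8% of all genes, 6.43% higher and 4.39% lower. DESeq2 gave an adjusted p for 8 of the 10 genes and called 0 of them, while it called 3.08% of all genes for which it gave one. Its unadjusted p was under 0.05 for 2 of the 10, BAD and BCL2, and for 5.82% of all genes with a value. The libraries of siControl and siLOC730101 did not overlap for 6 of the 10 genes, 4 higher (BAD, PMAIP1, BCL2L1 and MCL1) and 2 lower (BCL2 and BID). Over all genes this held for 41.7%, with 21.3% higher and 20.5% lower. The median log2 fold change of the 10 genes was 0.069, and that of all genes tested was -0.0021.

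Ratios between members of the same library do not depend on how libraries are scaled. The BAX to BCL2 ratio, a common index of the balance between pore former and inhibitor, was 6.84 and 8.81 per kilobase in siControl and 8.03 and 13.2 in siLOC730101. Its groups overlapped, and the higher siLOC730101 mean rested on replicate 2. The BAX to BCL2L1 ratio was 0.604 and 0.688 in siControl and 0.516 and 0.592 in siLOC730101, with both siLOC730101 libraries below both siControl libraries. The group means of the 2 ratios of BAX thus differed in opposite directions, depending on the inhibitor chosen. The PMAIP1 to MCL1 ratio was 0.272 and 0.295 in siControl and 0.306 and 0.345 in siLOC730101, and the groups did not overlap. The BCL2L11 to MCL1 ratio was 0.192 and 0.200 in siControl and 0.195 and 0.178 in siLOC730101, and the groups overlapped.

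Summed per kilobase, the BCL2, BCL2L1 and MCL1 share of the 10 genes was 52.4% and 49.7% in siControl and 51.2% and 48.8% in siLOC730101. The BAX and BAK1 share was 15.5% ± 2.18 in siControl and 14.2% ± 1.88 in siLOC730101 (SD, n = 2), and the groups overlapped for both of these shares. The BH3-only share was 33.7% and 33.3% in siControl and 36.0% and 35.6% in siLOC730101, a step of 2.31 percentage points with no overlap. Without division by exon length this step was 0.741 percentage points. Mean levels in siControl and siLOC730101 were 9.884 and 13.32 CPM per kilobase for BAD and 8.665 and 10.5 for PMAIP1. They were 5.97 and 6.01 for BCL2L11, 2.597 and 2.792 for BBC3 and 2.003 and 1.586 for BID. The step thus lay mainly in BAD and PMAIP1 and was not shared by the whole class. The BH3-only share with the trend with exon length, described below, removed was not tested. MCL1 alone made up 68.8% ± 0.432 of the anti-apoptotic sum in siControl and 67.6% ± 2.82 in siLOC730101. These shares come from the same libraries as the single genes, and with 2 libraries a group an exact two-sided permutation test cannot give a p under 0.333.

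The counts of some of these genes leave out exons that overlap another gene. The header of the table has neither a strand option nor one that counts reads on overlapping genes, so reads over shared bases are assigned to no gene. ABALON, an antisense lncRNA, covers 1735 bases or 41.3% of the exon bases of BCL2L1. Its own counts, at most 3 in any library, leave out reads over these shared bases and do not give its level. GPR137 covers 23.7% of BAD on the opposite strand, MIR4435-2HG and ACOXL together 13.8% of BCL2L11, ADAMTSL4-AS1 and ADAMTSL4 5.27% of MCL1, GGNBP1 4.11% of BAK1 and a pair of miRNA genes 2.51% of BBC3. BCL2, BAX, PMAIP1 and BID share no exon base. Divided by unshared bases only, the mean levels became 33.1 CPM per kilobase for MCL1, 23.4 for BCL2L1 and 15.2 for BAD, and the ranges of BCL2L1, BAD and PMAIP1 no longer overlapped. That of BCL2L11, with a mean of 6.95 CPM per kilobase, then overlapped that of BAX. GPR137 itself had 3502 and 3072 siControl counts against 2828 and 3138 siLOC730101 counts, at a log2 fold change of 0.22 (standard error 0.098, edgeR adjusted p = 0.444), so that a gene on the other strand of BAD had a difference of the same sign. Its part in the value of BAD was not tested.

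Fold changes also moved with exon length across the table. Among 14245 genes with a mean count above 50, the fifth with the shortest exons, up to 2632 bases, had a median log2 fold change of 0.094, and the fifth with the longest, from 8812 bases, of -0.046. BAD and PMAIP1, with exons of 1708 and 2186 bases, are in the shortest group together with BAX and BAK1, and BCL2 is in the longest. When the trend with exon length was removed from each library, the log2 fold change was 0.32 for BAD, 0.18 for PMAIP1 and -0.39 for BCL2. Their adjusted p-values in that edgeR fit were 0.309, 0.641 and 0.347, and the unadjusted p of PMAIP1 was 0.156.

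**Figure D3:**
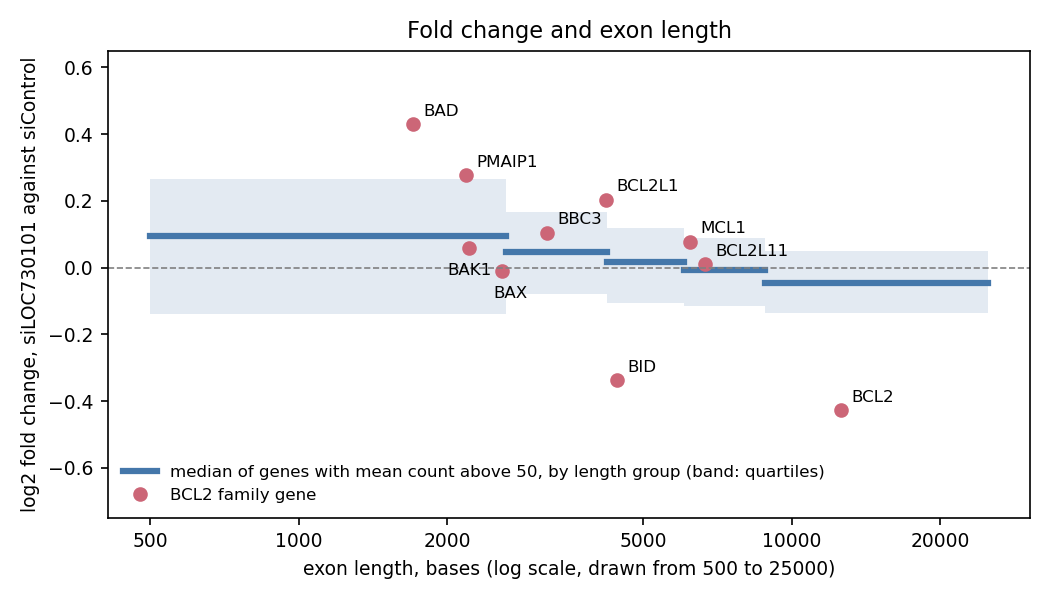
Log2 fold change, siLOC730101 against siControl, by exon length on a log scale, with the 10 genes as red points and, for 5 length groups of genes with a mean count above 50, the median as a blue line and the quartiles as a band. The blue medians step down from 0.094 to -0.046, BAD, PMAIP1 and BCL2L1 lie above the upper quartile of their groups, and BID and BCL2 lie below the lower quartile of theirs.

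Other genes of the pathway were examined in 6 lists of 78 genes, of which 73 were tested. In edgeR, 0 of the 73 genes were called, beside 0.284% of all genes, and 7 were higher and 4 lower at an unadjusted p under 0.05, beside 10.8% of all genes. DESeq2 called 1 of them, BOK, beside 3.08% of the 9653 genes for which it gave an adjusted p. It had 12 with an unadjusted p under 0.05, beside 5.82% of 31960 genes with a value. Those 31960 include genes that did not pass the expression filter of edgeR, so the 2 sets are not alike. The median log2 fold change was 0.044, and 27 were higher and 13 lower with no overlap of the groups, beside 21.3% and 20.5% of all genes.

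Among 13 tested relatives of the BCL2 family, 9 had a log2 fold change above 0 and 4 below, with a median of 0.18. BOK, a relative of BAX and BAK1, had 9.82 and 8.75 CPM per kilobase in siControl and 13.9 and 12.3 in siLOC730101. Both siLOC730101 libraries were above both siControl libraries, at a log2 fold change of 0.50 (standard error 0.12, edgeR adjusted p = 0.0962). The adjusted p of BOK was 0.0219 in DESeq2 and ranged from 0.00149 to 0.325 over the alternatives. BNIP3L, a mitophagy receptor, had 41.2 and 43.9 CPM per kilobase in siControl and 36.5 and 34.6 in siLOC730101, or a log2 fold change of -0.26 (standard error 0.078, edgeR adjusted p = 0.179). Its paralog BNIP3, the most abundant of the list, was at 0.15 (standard error 0.079, edgeR adjusted p = 0.513). BIK at 0.50 and BCL2L13 at -0.23 were the other relatives with an unadjusted p under 0.05, and are named here after their values were seen. BCL2A1, BCL2L10 and BCL2L14 had at most 14 counts in a library and were not tested.

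The apoptosome and caspase list, with 14 genes tested, had a median log2 fold change of 0.046. CYCS, which encodes the cytochrome c released through BAX and BAK1 pores, was at 0.086 (edgeR adjusted p = 0.774), and APAF1, the scaffold it binds, at -0.26 (edgeR adjusted p = 0.539). AIFM1, a mitochondrial flavoprotein, was at 0.21 (edgeR adjusted p = 0.332), and PARP1, a caspase substrate, at -0.013 (edgeR adjusted p = 0.975). Of the 5 inhibitor of apoptosis genes, 4 had a log2 fold change below 0, the best known caspase inhibitor XIAP at -0.16 (edgeR adjusted p = 0.510), BIRC6 at -0.086 (edgeR adjusted p = 0.793) and, on the other side of 0, BIRC3 at 0.29 (edgeR adjusted p = 0.771). These values describe the steps after the mitochondrial membrane opens, and none passed the threshold in edgeR.

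Of 11 genes for proteins of the mitochondrial membranes, 7 were above 0. The import receptor gene TOMM22 was at 0.25 (edgeR adjusted p = 0.344), the mitofusin gene MFN1 at -0.18 (edgeR adjusted p = 0.443), the channel gene VDAC1 at 0.12 (edgeR adjusted p = 0.620) and TOMM20 at 0.057 (edgeR adjusted p = 0.842). In the death receptor list, 7 of 11 tested genes were above 0. CFLAR, the inhibitor of caspase 8, was at -0.28 (edgeR adjusted p = 0.306) and the adaptor gene TRADD at 0.25 (edgeR adjusted p = 0.399). The receptor genes TNFRSF10B at 0.048 (edgeR adjusted p = 0.885) and TNFRSF1A at 0.0019 (edgeR adjusted p = 0.998) were the most abundant of that list.

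Among 19 tested genes for turnover and regulation of the family, 11 were above 0 and 8 below, with a median of 0.037. AVEN, which encodes a partner of BCL-XL and APAF1, was at 0.45 (standard error 0.15, edgeR adjusted p = 0.235), and BAG1, a BCL2-binding cochaperone, at 0.29 (standard error 0.10, edgeR adjusted p = 0.274). The abundant genes TMBIM6 and YWHAQ were at -0.0049 (edgeR adjusted p = 0.992) and 0.037 (edgeR adjusted p = 0.917). MARCHF5, which encodes a ubiquitin ligase of the mitochondrial outer membrane, had the levels most like those of MCL1 among these 73 genes, with a root-mean-square difference of 0.016 in log2 CPM per kilobase over the 4 libraries. It had 30.0 and 30.3 CPM per kilobase in siControl and 32.6 and 31.8 in siLOC730101. BIRC5 was nearest to BCL2L1, with a difference of 0.15, and BNIP1 to BAX, with a difference of 0.18.

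**Figure D4:**
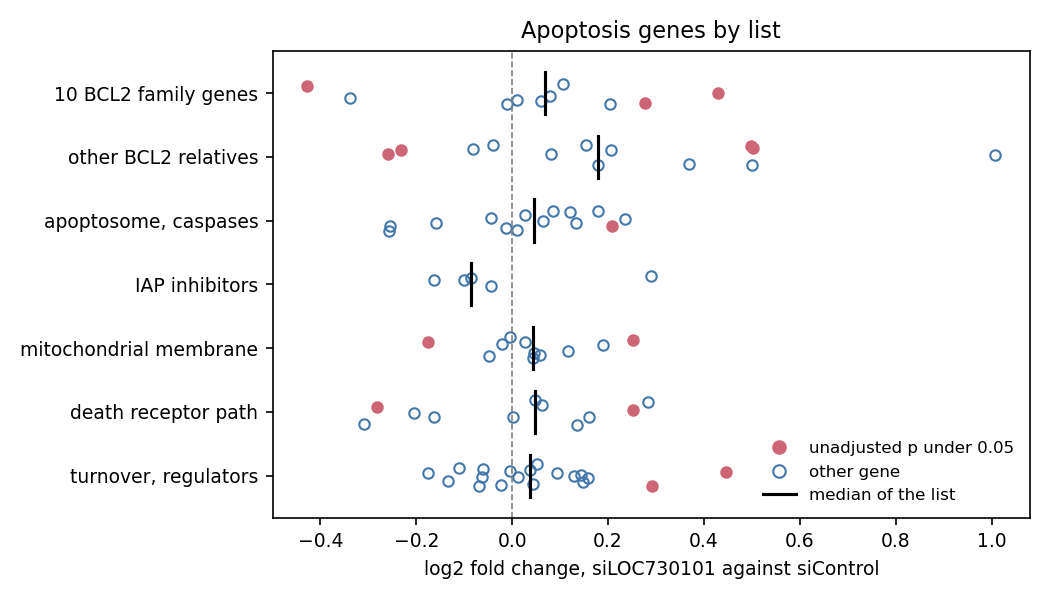
Log2 fold change, siLOC730101 against siControl, of the 10 genes and of the tested genes of 6 further apoptosis lists, 1 point a gene, filled red where the unadjusted edgeR p was under 0.05, with a black line at the median of each list. The medians lie between -0.086 for the inhibitors of apoptosis and 0.18 for the other BCL2 relatives, and the point farthest right is BCL2L15 at 1.01, with a standard error of 0.98.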

How the data were processed

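The analysis used 4 libraries of poly(A) RNA from DaroR cells, 2 siControl and 2 siLOC730101, grouped by their labels. The authors trimmed the reads, aligned them and deposited 1 table of counts per gene from featureCounts 2.0.1, without normalization. The header names hg38 and gencode version 41, whereas the methods of the paper name hg19 and an older release. STAR is named there as the aligner, and BWA in the submitters' processing notes. In genes with 1 to 20 counts, 66.0% to 70.1% of counts were even, as when mates are counted apart, and the header has no strand option.

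Counts were tested in R 4.3.3 with edgeR 4.0.16 (filterByExpr, TMM, estimateDisp, glmQLFit and glmQLFTest at package defaults, condition as the only term), with Benjamini-Hochberg adjustment over 19349 genes. The 95% intervals use the moderated degrees of freedom. The common biological coefficient of variation was 0.147. The test was tried on simulated counts. Alternatives were DESeq2 1.42.0, other scalings, filters and quasi-likelihood settings, halved counts, a replicate block, each library left out in turn and, chosen after seeing the data, removal of the trend with exon length and levels per unshared exon base. All other computation used Python 3.11.15.

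The 10 genes were given by name and the other lists were written with earlier results of these data known. Named beside them are, in each further list, genes with an adjusted p under 0.05, the 2 most abundant and the 2 with the lowest p. Sites were searched in 1 canonical transcript a gene of a GRCh37 annotation, joined by name. The mature miRNA is from RefSeq (GRCh38.p14). Gene positions are those of the count table, on GRCh38. The results for 2 further marker genes are not reported here.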

Additional observations from a re-analysis of the deposited data

How the results depend on the processing

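Over 15 alternatives, the 10 BCL2 family genes gave 150 values, of which 136 kept the direction and the side of the threshold, 3 came to pass it and 11 changed direction. An adjusted p that DESeq2 did not give (BBC3 and BID) was not counted as a lost call. The 3 that passed were BAD with the replicate block, and BCL2L1 and BAD without siLOC730101 replicate 1. The fit without that replicate had a lone siLOC730101 library and called the most genes across the table of all 15 alternatives. The count of family genes called was 1 with the replicate block, in a fit that called 3.37% of all genes, and 0 in the other alternatives with all 4 libraries. The direction of BCL2L11 was -0.020 with upper-quartile factors, -0.026 with library size only and -0.0054 with a mean count above 50, and that of BAK1 was -0.040 with the exon length trend removed. When each library was left out, values ranged from -0.27 to 0.22 for BAX, -0.21 to 0.40 for BAK1, -0.051 to 0.074 for BCL2L11 and -0.0093 to 0.22 for BBC3, and, with no change of sign, from 0.055 to 0.35 for BCL2L1, -0.54 to -0.32 for BCL2, 0.19 to 0.37 for PMAIP1, -0.56 to -0.13 for BID and 0.34 to 0.52 for BAD. The cause was not tested.

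The number of genes called across the table, 55 in the reported fit, was 93 with library size only, 437 with no filter beyond 1 count, 173 with a mean count above 50, 297 with DESeq2, 111 with the legacy method off, 652 with the replicate block, 148 with halved counts and 102 with the exon length trend removed. It was 137 to 1195 when each library was left out, highest without siLOC730101 replicate 1. Of the other apoptosis genes, 0 in the reported fit, 1 was called with no filter beyond 1 count, with a mean count above 50 and with DESeq2, 2 with the replicate block and 0 to 6 with a library left out. LOC730101 kept its direction and call in all 15.

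Same-numbered libraries of both groups had deviations from their group means that correlated at 0.048 over 14245 genes, and the labels state no shared day or batch, so the number was not taken as a pairing and the block result for BAD (log2 fold change 0.43) is given as an alternative. With a library left out, the lone library of its group is assumed to vary like the other group. Standard errors were 0.19 for BBC3 and 0.20 for BID, with 247 to 446 counts a library, and 0.20 for BAK1, with 440 to 653. BAX had 0.16 with 728 to 1091 counts, BAD 0.13 with 789 to 915 and MCL1 0.073 with 7585 to 10200. The part of depth in this was not tested.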
